A study of Drosophila melanogaster with 15 samples.

Results

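The comparison described here is that of larval nervous systems in which neurons carried an RNAi construct against ND-75 with those of control larvae. Its members are 3 ND-75 RNAi arrays and 3 control arrays, 6 of the 15 arrays of the study. The ND-75 RNAi larvae had the genotype nsybGal4>ND-75 RNAi, made with RNAi line 33910, and the control larvae were nsybGal4/+. Both groups therefore carried the driver nsybGal4, which is active in neurons, and only the ND-75 RNAi larvae carried an RNAi construct. The other 9 arrays, 3 a group, came from larvae in which the same driver expressed RNAi against another subunit. The targets were UQCR-14 of complex III (line 109542), COX5B of complex IV (line 105769) and ATPsynCf6 of the ATP synthase (line 107826). In a contrast with these groups, target and line cannot be told apart. Each sample was the whole central nervous system of 15 pooled wandering larvae reared at 25 °C, from which 10 ng of RNA was amplified. ND-75 had a single RNAi line, and no group carried RNAi against an unrelated gene, so the effect of losing ND-75 cannot be told apart from other effects of that line. The dissected tissue also held glia and dividing precursors, which the driver does not target, and in such bulk tissue fewer cells of a type and less RNA per cell cannot be told apart.

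Complex I, or NADH dehydrogenase, is the entry point for electrons from NADH into the mitochondrial respiratory chain, and it pumps protons that drive ATP synthesis. ND-75 is one of its core subunits and holds iron-sulphur clusters through which electrons pass to ubiquinone. Neurons depend heavily on oxidative phosphorylation, and cells with a failing respiratory chain are known to turn on nuclear genes of metabolism and stress defence, a signalling from mitochondria to the nucleus called retrograde.

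Several of the arrays stood apart from the others. Arrays carry probe sets near the 3' and 5' ends of a few control transcripts, and a high 3'/5' ratio marks RNA or amplified product with few 5' sequences. For actin the ratio was 3.79 on ND-75 RNAi 1, 37.4 on ND-75 RNAi 2 and 20.1 on ND-75 RNAi 3, and 2.94 to 3.95 on the controls. The same 2 arrays were high for eIF-4a, at 93.1 and 42.6 against 9.56 on ND-75 RNAi 1 and 6.08 to 7.90 on the controls. They were high for GAPDH too, at 21.3 and 19.8 against 4.85 on ND-75 RNAi 1. The 5' actin signal itself was 348 and 733 on these arrays, 2503 on ND-75 RNAi 1 and 2703 to 3268 on the controls. A different feature marked replicate 3 of both groups, whose upper quartile of signal was 485 (ND-75 RNAi 3) and 468 (control 3) against 566 to 653 on the other 4 arrays.

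**Figure D1:**
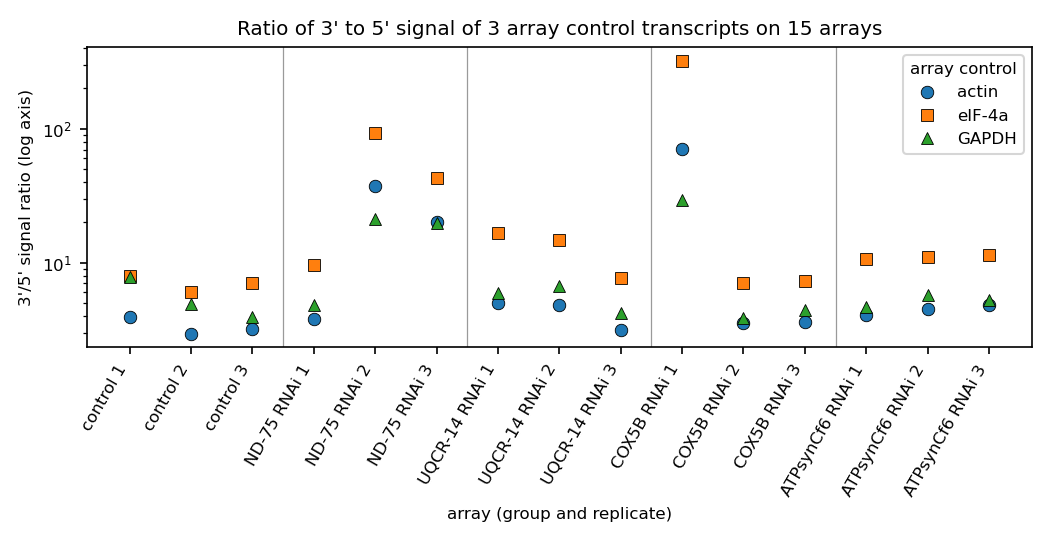
The 3'/5' signal ratio (log axis) of the actin, eIF-4a and GAPDH array controls on each of the 15 arrays, in order of group and replicate. ND-75 RNAi 2 and 3 lie above the 3 control arrays for all 3 transcripts, at 37.4 and 20.1 for actin, and ND-75 RNAi 1 lies at 3.79.

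Because the arrays varied so unequally, each entered the test with a weight estimated from its own scatter (limma's arrayWeights). The weights were 3.08, 1.36 and 0.257 for ND-75 RNAi 1, 2 and 3, and 5.21, 3.25 and 0.209 for control 1, 2 and 3. Changes below are log2 changes of the signal plus 16 estimated with these weights, each with its standard error (SE), and they understate the change of dim transcripts. A probe set, the array's unit of measurement for a transcript, is said to have risen or fallen where limma's p, adjusted by Benjamini-Hochberg over all 10340 probe sets kept, was under 0.05. Exact permutation of the labels of 6 arrays gives a p of 0.1 at best and was not used for single genes.

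The targeted gene was measured first. ND-75, on the X chromosome, had the signals 305, 195 and 194 on ND-75 RNAi 1, 2 and 3 and 335, 387 and 304 on the controls. The lower 2 values came from the arrays with high 3'/5' ratios, whose part in the difference was not tested, and the first lay inside the control range. On the log2 scale the means were 7.92 ± 0.35 (SD, n = 3) and 8.48 ± 0.17 (SD, n = 3). The weighted log2 change was -0.41 (SE 0.19, 95% interval -0.80 to -0.01) and did not pass the test (limma, adjusted p = 0.444). With the replicate number as a block it was -0.65 (adjusted p = 0.0725). The tissue also held cells in which the driver is not active, and knock-down within neurons cannot be read from these arrays.

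Beyond the target, 162 probe sets changed, 96 of them upward and 66 downward. These are 1.57% of the 10340, with 0.928% rising and 0.638% falling. The median log2 change was 1.12 among the rises and -1.09 among the falls. 67 rises and 43 falls exceeded 1 on the log2 scale, that is 2-fold. Among the probe sets that rose, 78 genes were represented, and among those that fell, 53. The unadjusted p was under 0.05 for 1105 probe sets. The list of changes leans on the weights, since with equal weights 6 rose and 1 fell, 0.0677% together, and 155 had an unadjusted p under 0.05. Over the 10 arrays left after removal of 5 with a low upper quartile, replicate 3 of both groups among them, 93 rose (0.899%) and 82 fell (0.793%), and 130 probe sets, 1.26%, were called in both fits in the same direction. All 3 ND-75 RNAi arrays lay above all 3 controls for 74 of the 96 rises and below them for 46 of the 66 falls. The shares over all kept probe sets were 3.54% and 4.13%. The called probe sets were selected on these same arrays, so their greater separation follows from the selection and is no separate evidence.

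**Figure D2:**
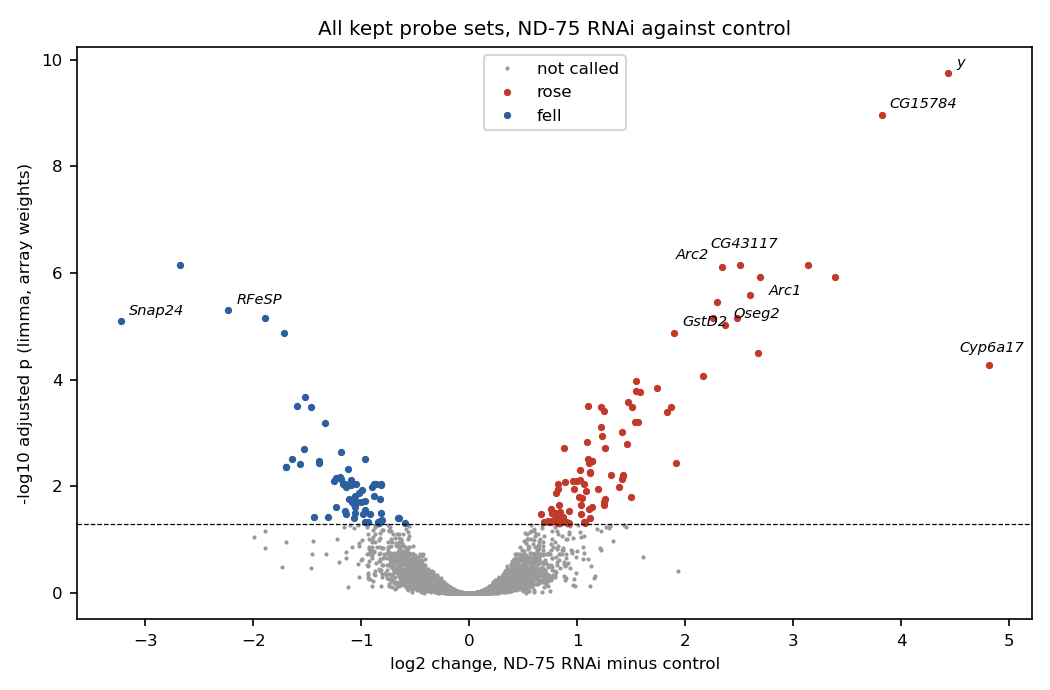
Log2 change in ND-75 RNAi relative to control (horizontal axis) against -log10 of limma's adjusted p (vertical axis) for the 10340 kept probe sets, with the threshold of 0.05 as a dashed line. The 96 rises reach further (Cyp6a17 at 4.81, y at 4.44) than the 66 falls (Snap24 at -3.23). The control arrays were all below their medians for 14 of the rises, Cyp6a17 among them, and for none of the falls.

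ND-75 RNAi 2, an array with high 3'/5' ratios, was compared with ND-75 RNAi 1 among the rises and the falls. It was lower for 52 of the 66 falls (78.8%) and for 56 of the 96 rises (58.3%), against 60.2% of all kept probe sets. Both arrays entered the test that selected the falls and rises, so these shares depend on the selection and are no separate evidence. The part of the ratios in them was not tested. ND-75 RNAi 1 carried 65.5% of its group's weight, so a fit with it as the only array of the group is no independent check, and it takes its spread from the other groups. The median change of the rises was 1.19 in that fit and that of the falls -0.97. It called 64 of the 96 rises and 28 of the 66 falls, and 72 rises and 29 falls over all probe sets. When the replicate number was added as a block, the total went from 162 to 355, of which 113 rose and 242 fell.

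The strongest rise was that of Cyp6a17, a cytochrome P450 that flies use in setting their preferred temperature. Its signals were 507, 444 and 509 on ND-75 RNAi 1, 2 and 3 and 0.710, 4.10 and 2.92 on the controls. The controls lay below their arrays' medians, so the change of 4.81 (SE 0.57, limma adjusted p = 5.21e-05) gives no exact fold. The 3 ND-75 RNAi arrays lay close together and far above the controls. The part of the 3'/5' ratios in this change was not tested. The other RNAi groups had a median of 12.2 and a maximum of 106.

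The pigmentation gene yellow (y), which is also widely used as a visible marker of transgenes, had signals of 1723, 1720 and 947 against 61.1, 63.1 and 54.1. All 3 ND-75 RNAi arrays lay far above the controls, and the change was 4.44 (SE 0.20, adjusted p = 1.78e-10), or 21.7-fold. The labels do not give the marker genes that the lines carry. Of 4 other genes on the list of transgene and background markers, forked (f) rose by 0.90 (adjusted p = 0.0468), with overlapping groups and without the call under the replicate block (adjusted p = 0.145). The pigment transporter gene bw stood at 0.60, and ry and sn at 0.24 and -0.03, none of them called.

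CG15784, a gene of unknown function, had 1129, 1414 and 927 in ND-75 RNAi and 65.1, 77.1 and 73.7 in control. The change was 3.82 (SE 0.20, adjusted p = 1.07e-09), or 14.1-fold, with no overlap and little scatter. CG43117 had 325, 443 and 247 against 43.8, 55.7 and 68.3, a change of 2.51 (SE 0.20, adjusted p = 6.99e-07). Together with Cyp6a17, y and RFeSP, these were the named genes still called when all arrays had equal weight.

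The Arc genes rose at every probe set kept for them. Arc1 and Arc2 encode proteins related to the capsid protein of a retrotransposon, and fly Arc1 forms capsids that carry RNA between neurons and muscle. At its brighter probe set Arc1 had 9021, 11740 and 15169 in ND-75 RNAi and 3215, 2613 and 4122 in control, a change of 1.74 (SE 0.22, adjusted p = 0.000145). The values at the dimmer one were 124, 144 and 128 against 9.21, 2.70 and 6.88, a change of 2.69 from controls that lay below their arrays' medians. Arc2 had 1042, 842 and 1270 against 172, 192 and 386, a change of 2.34 (SE 0.19, adjusted p = 7.75e-07). Neither gene had an ND-75 RNAi array within the control range.

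Other large rises came from genes of varied roles. Oseg2, a component of intraflagellar transport, had 122, 113 and 78.3 against 9.76, 9.95 and 4.53, the controls again below their medians (change 2.37, adjusted p = 9.29e-06). GstD2, a glutathione S-transferase of the delta class, had 290, 306 and 181 against 63.7, 72.0 and 28.6 (change 1.89, adjusted p = 1.31e-05). Tret1-1, a trehalose transporter of the glia that enclose the brain, had 2334, 1240 and 1060 against 414, 716 and 520 (change 1.83, adjusted p = 0.000410). These 3 genes had separated groups, and Tret1-1 was highest on ND-75 RNAi 1, without which its change was 1.15. The BMP receptor gene thickveins (tkv) rose by 1.51 at 1 probe set, while its brighter one stood at -0.16. The remaining genes among the 15 largest rises by the naming rule, which asks for separated groups and for a call over the 10 arrays too, were CG10936 (1.87), CG9313 (1.59), CG42254 (1.54), CG12493 (1.53) and CG42694 (1.5). A probe set annotated to several genes, left unnamed and singled out after its values were seen, had 2422, 1872 and 7883 against 223, 183 and 908, a change of 3.39.

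**Figure D3:**
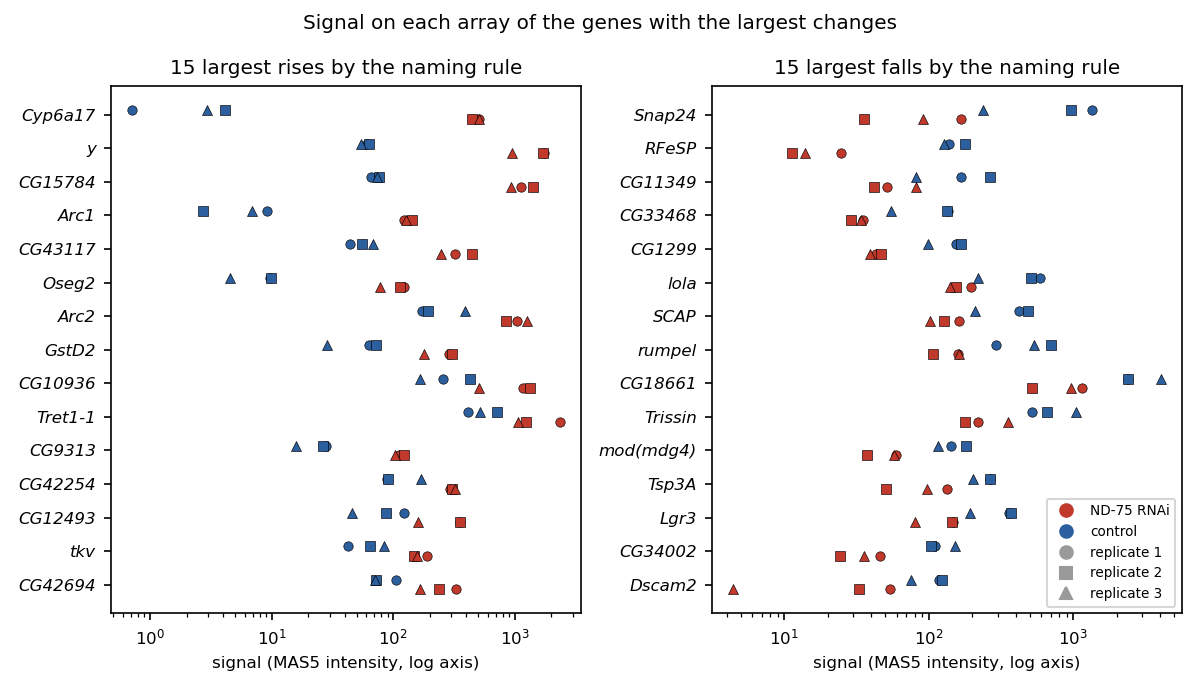
Signal (log axis) on each ND-75 RNAi array (red) and control array (blue) for the 15 genes with the largest rises and the 15 with the largest falls by the naming rule, with marker shape for the replicate number. The rule required separated groups; Cyp6a17, Arc1 and Oseg2 have control signals under 10, and the falls of Snap24 and lola have a control 3 that lies nearer to the ND-75 RNAi arrays than control 1 and 2.

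The largest fall was that of Snap24, a SNARE protein of membrane fusion. Its signals were 168, 35.4 and 91.7 in ND-75 RNAi and 1346, 968 and 239 in control, a change of -3.23 (SE 0.33, adjusted p = 7.92e-06). The groups did not overlap, although control 3 stood far below control 1 and 2, and without control 1 the change was -2.03. The 9 arrays of the other RNAi groups ranged from 88.8 to 158, near the ND-75 RNAi arrays, and the difference from those groups was -0.22 (adjusted p = 0.931).

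RFeSP, the Rieske iron-sulphur subunit of complex III, fell at 1 of its 2 probe sets. There the signals were 24.7, 11.4 and 13.9 against 138, 179 and 128, a change of -2.23 (SE 0.22, adjusted p = 4.96e-06) to values below the arrays' medians. Its brighter probe set had 765, 497 and 1025 against 835, 993 and 1581, with overlapping groups and a change of -0.39 (adjusted p = 0.614). The other RNAi groups were as low as ND-75 RNAi at the dimmer probe set, with a median of 24.5.

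Genes of signalling, transport and cell recognition were among the other falls. SCAP, which escorts the sterol-regulated factor SREBP, had 163, 129 and 102 against 420, 489 and 209 (change -1.46, adjusted p = 0.000325). The neuropeptide gene Trissin had 218, 179 and 356 against 523, 660 and 1041 (change -1.39, adjusted p = 0.00362). Lgr3, the receptor for the relaxin-like hormone Dilp8, had 148, 146 and 80.8 against 357, 373 and 194 (change -1.23, adjusted p = 0.00694). In each of these the lowest control lay above the highest ND-75 RNAi array. The transporter gene rumpel, known from glia, had 160, 107 and 161 against 294, 698 and 533 (change -1.44, adjusted p = 0.0372). The cell recognition gene Dscam2 fell by 1.19 on the log2 scale at 1 of 5 probe sets, and the tetraspanin gene Tsp3A by 1.26. The others among the 15 largest falls by the same rule were CG11349 (-1.70), CG33468 (-1.59), CG1299 (-1.53), lola (-1.52), CG18661 (-1.39), mod(mdg4) (-1.33) and CG34002 (-1.20).

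Falls were in most cases seen at a single probe set of a gene. Of the 53 genes with a fall, 22 had several kept probe sets, against 538 of all 7947 genes (6.77%), and a gene with many probe sets has more chances of a single call. In 1 of the 22, CG13679, more than 1 probe set fell. The 69 other probe sets of these genes had a median change of -0.14, and 45 of them were negative. The transcription factor gene lola fell at 1 of 14 probe sets and the chromatin insulator gene mod(mdg4) at 1 of 22, and both genes are known for many alternative transcripts. Of the 78 genes with a rise, 11 had several probe sets, and in 1, Arc1, more than 1 rose. The 12 other probe sets of these genes had a median change of 0.00. Where along a transcript each probe set lies is not given in the sources used here, so the part of the high 3'/5' ratios in these differences was not tested.

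**Figure D4:**
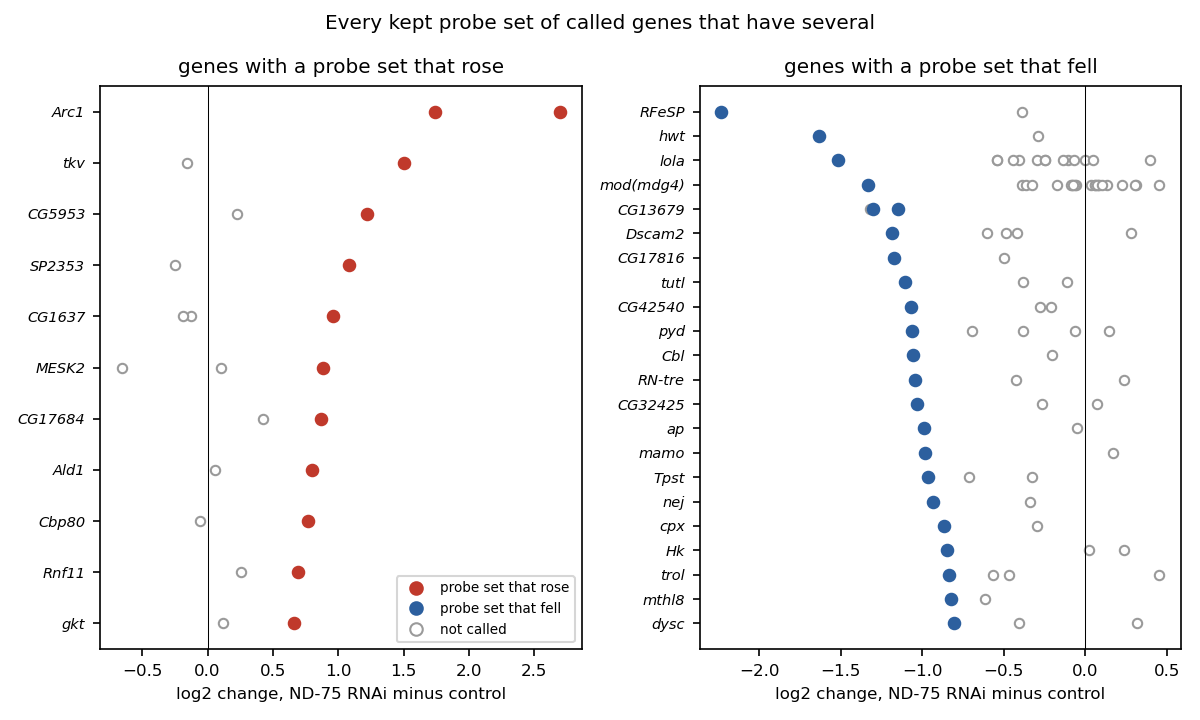
Log2 change of every kept probe set (points) of the genes with several, for 11 genes with a rise (left) and 22 with a fall (right); filled points were called. Most genes have 1 filled point, and the open points gather near 0, with those of the genes that fell centred at -0.14.

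Most genes of the respiratory chain itself did not pass the test, which was also so of all genes. Gene lists were read at each gene's brightest probe set, where 73 of 7947 genes rose (0.919%) and 38 fell (0.478%), with a median change of -0.01. None of the 27 measured complex I subunit genes, ND-75 included, passed the test, and their changes ran from -0.51 to 0.24 with a median of -0.11. None of 3 complex II genes, 7 complex III genes or 13 ATP synthase genes passed it, with medians of -0.13, 0.02 and 0.02. RFeSP of complex III was counted here at its brighter probe set (-0.39), not at the dimmer one that fell (-2.23). In complex IV, 1 of 12 rose, the COX7A-like gene COX7AL, with 78.0, 63.8 and 142 against 33.6, 17.5 and 36.1 (change 1.11, adjusted p = 0.0268). Of 8 genes listed for complex I assembly, CG5646, whose role is not certain, rose by 1.43 (adjusted p = 0.00635) with overlapping groups, and stood at 0.54 without control 1. COX7AL was not called over the 10 arrays (adjusted p = 0.0812).

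Carbohydrate genes included several rises. Hexokinase A (Hex-A), the first enzyme of glycolysis, had 2069, 1896 and 1162 against 884, 1100 and 556, a change of 1.03 (SE 0.19, adjusted p = 0.00497). Aldolase (Ald1) had 6495, 7823 and 6927 against 3522, 4760 and 3831, a change of 0.80 (SE 0.18, adjusted p = 0.0318), with a second, dimmer probe set at 0.06. For both genes the lowest ND-75 RNAi array lay above the highest control, and without ND-75 RNAi 1 the change of Hex-A was 0.64. These were 2 of 10 glycolysis genes, whose median change was 0.14. All 10 had a positive change in the weighted fit, 9 over the 10 arrays or under the replicate block and 7 with ND-75 RNAi 1 alone, against 48.9% of all genes in the weighted fit. Pepck2, the phosphoenolpyruvate carboxykinase that acts in mitochondria, had 699, 795 and 555 against 422, 241 and 163 (change 1.06, adjusted p = 0.0464). With Tret1-1, 1 of 9 genes of trehalose and sugar transport rose, and 5 of the 9 had a positive change. UGP of that list had 250, 245 and 230 against 61.0, 171 and 50.4, a change of 1.30 that was not called. Its limma adjusted p was 0.0519, and 0.0206 under the replicate block and 0.166 over the 10 arrays. None of 23 genes of the TCA cycle or of 19 of fatty acid oxidation and lipid storage passed the test. Idh3g, a subunit of isocitrate dehydrogenase, stood at 0.77 (adjusted p = 0.0690), and Idh3b, another subunit of that enzyme, at -0.41 (adjusted p = 0.555). Under the replicate block both passed the test, in opposite directions, at 0.76 (adjusted p = 0.0239) and -0.83 (adjusted p = 0.0322).

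**Figure D5:**
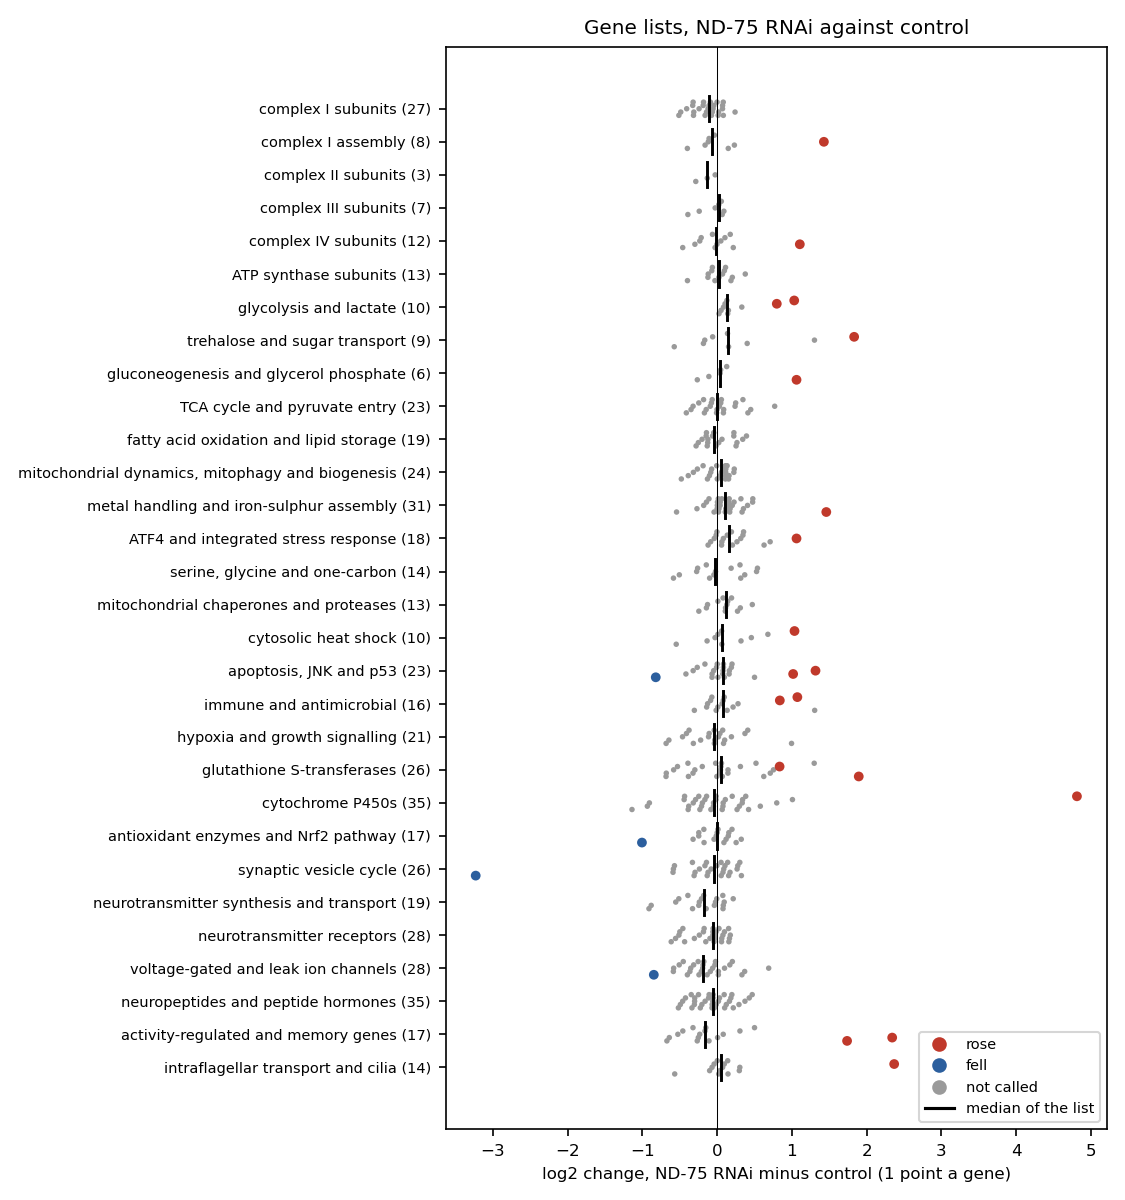
Log2 change in ND-75 RNAi relative to control of each measured gene (points) in 30 gene lists, with the number of genes in brackets and the median as a black bar. The 27 complex I genes lie between -0.51 and 0.24, and called genes (large points) are single members of their lists in most cases.

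Stress and defence genes moved singly. Of 18 genes of ATF4 and the integrated stress response, Pepck2 was the 1 that rose, and the median of the list was 0.16. None of the 13 mitochondrial chaperones and proteases on their list passed the test. The list leaves out Roe1, a co-chaperone of mitochondrial Hsp70 chosen after its values were seen, which fell (-0.82, limma adjusted p = 0.00887). The protease subunit Afg3l2 had 4199, 5210 and 5406 against 3222, 3355 and 3079, with separated groups and a change of 0.47 (adjusted p = 0.140, and 0.0244 under the replicate block), and its partner Spg7 stood at 0.31. Of 10 cytosolic heat shock genes Hsc70-2 was called upward at 1.03 (adjusted p = 0.0323), from signals of 51.5, 13.9 and 42.4 against 10.9, 7.14 and 32.3 that overlapped and were mostly below the arrays' medians. That call was absent under the replicate block (adjusted p = 0.161). Of 31 genes of metal handling and iron-sulphur assembly, Zip102B, of the ZIP family of metal transporters, rose by 1.46 (adjusted p = 0.00160), from 190, 319 and 394 to 719, 610 and 555, and by 0.90 without control 1, where it was not called.

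Among genes of detoxification, GstD2 and GstO3 rose of 26 glutathione S-transferases, and Cyp6a17 of 35 cytochrome P450s, with list medians of 0.05 and -0.05. None of either list fell in the weighted fit, but under the replicate block 4 glutathione S-transferases (GstD3, GstE2, GstT4 and GstZ2) and 2 P450s (Cyp28a5 and Cyp4ac3) fell beside the same 3 rises. Of all 7947 genes, 90 rose and 164 fell under that block, against 73 and 38 in the weighted fit. GstO3 had 1857, 1921 and 2535 against 1039, 1069 and 1668 (change 0.84, adjusted p = 0.0227, and 0.51 without control 1). Of 17 genes of antioxidant enzymes and the Nrf2 pathway, 1 fell. It was cnc, the fly counterpart of Nrf2, with 922, 1055 and 405 against 1766, 2116 and 866 (change -1.01, adjusted p = 0.0193). Its groups overlapped, since control 3 was lower than ND-75 RNAi 1 and 2, and the change was -0.42 without control 2.

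In the list of apoptosis, JNK and p53, 2 of 23 genes rose and 1 fell. The cell death gene grim, which blocks inhibitors of apoptosis, had 914, 750 and 401 against 326, 319 and 279 (change 1.32, adjusted p = 0.00611). Ku80, which binds broken DNA ends, had 812, 642 and 521 against 330, 413 and 288 (change 1.02, adjusted p = 0.0157). The JNK pathway kinase gene slpr had 522, 383 and 412 against 776, 979 and 692 (change -0.82, adjusted p = 0.00926). All 3 had separated groups, and Ku80 was not called over the 10 arrays (adjusted p = 0.0633). Of 16 immune genes 2 rose, PGRP-LF, which restrains the IMD pathway, by 1.07 (adjusted p = 0.0468, and 0.169 over the 10 arrays) and the thioester protein gene Tep4 by 0.84 (adjusted p = 0.0303).

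Most genes of the neuronal lists did not pass the test, which was also so of all genes, of which 0.919% rose and 0.478% fell. Of 26 synaptic vesicle genes 1 fell at its brightest probe set, Snap24, and the median of the list was -0.04. Complexin (cpx), a synaptic gene taken up below, fell by 0.87 on the log2 scale at 1 of 2 probe sets (limma adjusted p = 0.00887), with separated groups. Its other probe set stood at -0.30 (adjusted p = 0.640). None of 19 genes of transmitter synthesis and transport, 28 of transmitter receptors or 35 of neuropeptides on their list passed the test, with medians of -0.18, -0.06 and -0.06. With ND-75 RNAi 1 alone, that is without the 2 arrays of high 3'/5' ratio, these medians were 0.01, -0.01 and 0.01. Over the 10 arrays, ND-75 RNAi 2 included, they were -0.29, -0.11 and -0.22. Under the replicate block 2 genes of transmitter synthesis and transport and 2 of neuropeptides fell, and none of the 3 lists had a rise. That block called 90 rises and 164 falls among all 7947 genes. The part of the ratios in these medians was not tested. Of 28 ion channel genes 1 fell, Hyperkinetic (Hk), a subunit of the Shaker potassium channel, by 0.85 on the log2 scale (adjusted p = 0.0471), with overlapping groups, and it was not called under the replicate block (adjusted p = 0.126). Of 17 genes regulated by activity or linked to memory, Arc1 and Arc2 rose, and the list's median was -0.16. Of 14 genes of intraflagellar transport and cilia 1 rose, Oseg2.

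Of 27 glial marker genes, Tret1-1 rose and rumpel fell. Glutamine synthetase 2 (Gs2) had 982, 640 and 527 against 1220, 2329 and 1365, a change of -0.88 (adjusted p = 0.163, and 0.00249 under the replicate block). The transporter gene Gat stood at -0.91 (adjusted p = 0.193, and 0.0154 under the block), with signals of 42, 17.3 and 3.87 against 57.0, 104 and 47.3. Both had their lowest values on arrays 2 and 3, those with high 3'/5' ratios. Of 31 neuroblast identity genes 1 fell, mamo, with 1082, 1611 and 750 against 2315, 2594 and 994 (change -0.98, adjusted p = 0.0322). Its groups overlapped, and leaving out 1 array moved the change between -1.38 and -0.33, the latter without control 2. None of 39 genes of cell cycle and replication passed the test. None of 20 genes of the ecdysone response passed it either. ImpE2, a gene induced by ecdysone, had 582, 793 and 941 against 437, 229 and 331, a change of 0.91 (adjusted p = 0.0981, and 0.00191 under the block). It was higher than in the other RNAi groups by 1.28 (adjusted p = 0.0171).

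Markers of the nervous system were well represented. Of 6 neuronal markers on the array 5 were above the median on all 6 arrays, as were 5 of 5 glial and 6 of 6 neuroblast markers, and none of them was called. The summed signals of the neuronal markers ran from 9131 to 13539 in ND-75 RNAi and from 6912 to 13805 in control. Of 6 salivary gland markers 5 were above the median on all 6 arrays, Sgs1 being below it on all, and their sums ran from 926 to 7111 and from 777 to 12410. The 8 measured genes of the salivary glue list had a median change of 0.95, and 1.53 with ND-75 RNAi 1 alone, with Sgs3, Sgs4, Sgs5, Sgs7 and Sgs8 at 0.73, 1.21, 1.61, 1.17 and 1.16. None of these was called, and under the replicate block the same 5 ran from -0.63 to 0.42. Of 4 haemocyte markers 1, Hml, fell, at signals of 65.2, 35.9 and 172 against 160, 137 and 70.0 (change -1.14, adjusted p = 0.0322, and 0.187 under the replicate block). The summed haemocyte signals ran from 920 to 956 and from 830 to 1081. The part of other tissues in the changes was not tested.

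Whether a change was larger than in the other RNAi groups was tested as the difference between ND-75 RNAi and their mean, a contrast that uses no control array and shares the ND-75 RNAi arrays with the one above. It called 96 probe sets (0.928%), 47 higher (0.455%) and 49 lower (0.474%). On the arrays of the other groups the actin 3'/5' ratio was 70.1 on COX5B RNAi 1 and 3.17 to 5.03 on the rest. ND-75 RNAi 2 and 3 had 37.4 and 20.1. The weights of COX5B RNAi 1 and UQCR-14 RNAi 3 were 0.0266 and 0.0858. The part of the ratios in this contrast was not tested. The differences for Cyp6a17 (3.94, adjusted p = 0.000857) and y (3.46, adjusted p = 1.28e-08) were smaller than the changes from control, 4.81 and 4.44. CG43117 was also higher in ND-75 RNAi (2.03). CG15784 was higher by 1.52 and the dimmer probe set of Arc1 by 1.26, against changes from control of 3.82 and 2.69. The brighter probe set of Arc1 was not called in this contrast. mi rose by 1.47 against control and was higher by 0.87 here. SCAP (-1.35), mod(mdg4) (-1.66), CG18661 (-1.18), Dscam2 (-1.05), Tsp3A (-1.04), mei-38 (-1.01), CG10527 (-0.91) and Dph1 (-0.86) were lower. By contrast, Arc2 (0.50, adjusted p = 0.399), GstD2 (0.02, adjusted p = 0.995) and Oseg2 (0.48, adjusted p = 0.621) were not called in this contrast.

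A few further genes were chosen after their values were seen, because their roles are well known. Those that rose were mu2 (1.22), which acts at broken chromosome ends, gkt (0.66), a repair enzyme that frees trapped topoisomerase, Inos (1.38), which makes inositol phosphate, LKRSDH (0.88), of lysine breakdown, and the antimicrobial-like gene Drsl5 (1.91). Those that fell were cpx (-0.87), complexin of the synapse, at 1 of 2 probe sets, DIP-alpha (-0.92), a cell surface protein of synaptic matching, the histone demethylase gene Kdm5 (-1.12), Roe1 (-0.82), a co-chaperone of mitochondrial Hsp70, and Adk3 (-0.65), an adenylate kinase. Drsl5 had 561, 568 and 765 against 160, 99.9 and 757, so control 3 overlapped with the ND-75 RNAi arrays, and the change was 0.67 without control 2. Inos was highest on ND-75 RNAi 1, at 2876, and 1522 and 1003 on the other 2 arrays, against 769 to 913 in control, and without ND-75 RNAi 1 its change was 0.52.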

How the data were processed

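The deposited table holds linear intensities, computed by the authors with MAS5, per the submitters' processing notes, in which the Transcriptome Analysis Console and the Affymetrix Expression Console are named too. Versions are not given in the sources used here. The authors' scaling was kept. Of 18952 probe sets 183 array controls were set aside, and 10340 of the remaining 18769 were kept, those above the array's median on at least 3 of 15 arrays. After adding 16 and taking log2, limma 3.58.1 (R 4.3.3) fitted 5 group means to all 15 arrays with array weights and an intensity trend. Tests were two-sided, with Benjamini-Hochberg adjustment over the kept probe sets. The deposited series gives no detection calls here, so the number of arrays and the distance of a signal from its array's median limit the precision. The fitting code was tested on simulated data with independent errors scaled by the estimated weights. That checks the code, not the calls made here.

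Of the kept probe sets 8695 had 1 gene in the array's annotation, 256 several and 1389 none. The 48 gene lists were written from general knowledge, and 1122 of 1405 symbols matched. The arrays, lists and tests were chosen with earlier results of these data known. The naming rule takes ND-75, then up to 15 rises and 15 falls of largest change that were called with weights and over 10 arrays, had 1 gene and had separated groups. It then takes up to 8 rises and 8 falls of the same kind among probe sets above the median on all 6 arrays, and among those also called against the other RNAi groups, and last the called members of each list.

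The labels number the replicates without saying what a number shares, or whether the larval pools were separate, so p-values measure the spread between these samples, which may be technical. Deviations of same-numbered ND-75 RNAi and control arrays correlated at 0.385, 0.632 and 0.771, which passes the rule for pairing used here. The pairs 1 with 2 (0.555) and 2 with 1 (0.651) correlated as highly, and those of 3 with 1 or 2 at -0.527 to -0.727, so the pattern is mostly that of replicate 3. Alternatives were equal weights, fewer arrays, a replicate block, other added constants, filters and scalings, and leaving out each array.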

Additional observations from a re-analysis of the deposited data

Results flagged for a closer look

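Named genes whose level in ND-75 RNAi differed from the mean of the other 3 RNAi groups, by limma's test of that difference, are listed with the log2 difference. Higher in ND-75 RNAi were Cyp6a17 (3.94), y (3.46), Drsl5 (2.13), CG43117 (2.03), CG10936 (1.66), CG15784 (1.52), Zip102B (1.48), ImpE2 (1.28, not called against control), Arc1 at its dimmer probe set (1.26), CG12493 (0.97) and mi (0.87). Lower were Dph1 (-0.86), CG10527 (-0.91), mei-38 (-1.01), Tsp3A (-1.04), Dscam2 (-1.05), CG18661 (-1.18), SCAP (-1.35), mod(mdg4) (-1.66) and Hsc70-2 (-2.83). Hsc70-2 had a median of 468 on the arrays of the other RNAi groups and 51.5 at most in ND-75 RNAi.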

How the results depend on the processing

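The 162 calls against control were 7 with equal weights (9 with the replicate block), 96 over 10 arrays without ND-75 RNAi 2 as well, 101 with weights without ND-75 RNAi 2 and 3, 355 with the replicate block and weights (538 over 12 arrays), 84 without the filter, 367 after quantile normalization and 83 over 10 arrays with the replicate block, a setting chosen after seeing the data. Leaving out single arrays of the 2 groups gave 2 to 203: 17 and 15 without ND-75 RNAi 1 or 2, and 2 without control 1 or 2. With 2 arrays left in a group their weights come out equal by construction, so replicate 3 then counts fully. The 96 calls against the other RNAi groups were 8 with equal weights (11 with the replicate block), 247 over 10 arrays, 60 without ND-75 RNAi 2 and 3, 513 with the replicate block and weights (950 over 12 arrays), 225 after quantile normalization and 147 over 10 arrays with the replicate block. Leaving out single arrays gave 2 to 130 there. ND-75 ran from -0.80 to -0.19 and passed under none of these settings. Of 64 named called probe sets, none changed sign, 59 lost the call with equal weights, 6 over 10 arrays, 21 without ND-75 RNAi 2 and 3, 24 without the filter and 4 (f, Hk, Hml and Hsc70-2) with the replicate block and weights, while 62 lost it without control 1 or control 2. Leaving out 1 array moved the change of 31 of the 64 by over 1.5 times, in 25 of them to a smaller one, among them Tret1-1 (1.15) and grim (0.74) without ND-75 RNAi 1, lola (-0.85) without control 1, Lgr3 (-0.82) and SCAP (-0.94) without control 2 and Hml (-0.40) without ND-75 RNAi 2. Of the 64, y and CG15784 alone kept it under every setting that gave them a value. The filter asking for all 15 arrays above the median left 40 of the 64, all still called. The 6 arrays of the 2 groups give no value for the contrast with the other RNAi groups. The cause of these shifts was not tested.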
